A study of Mus musculus with 9 samples.

Results

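The insulin-like growth factor (IGF) binding proteins and receptors described here are 10 genes: the binding proteins Igfbp2, Igfbp3, Igfbp4, Igfbp5, Igfbp6 and Igfbp7, the receptors Igf1r and Igf2r, and the receptor adaptors Irs1 and Irs2. Every probe set of the Affymetrix MG-430 2.0 mouse array that is annotated with one of these symbols and no other was taken, which gave 24 of the 45037 non-control probe sets and 10 of the 18193 genes measured. The family was proposed with earlier results of the same 9 arrays in view, among them a low Igfbp2 signal in the knockout line and a high Igfbp7 signal in the tumour line. The values of the members are therefore a description, and no p-value is given for them. Values are log2 signals, so a difference of 1 is a 2-fold difference, and each mean is given with its SD over 3 arrays.

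The lines were 3 mouse epithelial lines of a C57/BL6 x sv129 background, profiled on 3 arrays each. The tumour line is MDA-F471, isolated out of a lung adenocarcinoma of a female Gprc5a-knockout mouse killed 16 months after intraperitoneal injection of NNK, a tobacco carcinogen. The knockout line was grown from the trachea of a Gprc5a-knockout mouse aged 3 weeks and does not form tumours, and the tumour line therefore shares its deleted gene. The wild-type line was grown from the trachea of a mouse of the same age with intact Gprc5a, which encodes an orphan G-protein-coupled receptor of the airway and lung epithelium. The wild-type genotype is held by 1 line and the knockout genotype by the other 2, which also differ in organ of origin, NNK and age. With 1 line for each of the 3 groups, what sets the groups apart by design cannot be told apart from the line itself and its handling, and the labels do not say that the 3 arrays of a line came from separate cultures. The p-values given for genes outside the family measure only the spread between those arrays.

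IGF1 and IGF2 are secreted growth factors, and most of them outside cells is held by IGF binding proteins, which lengthen their life and either withhold them from receptors or deliver them. Free ligand activates IGF1R, a receptor tyrosine kinase that signals through the adaptors IRS1 and IRS2 to PI3K and AKT, whereas IGF2R takes up IGF2 for degradation and also sorts lysosomal enzymes that carry mannose 6-phosphate. In airway and lung this pathway is known for its part in the growth and repair of the epithelium.

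Gprc5a, read by 1 probe set, had signals of 6.96, 7.02 and 7.09 in the tumour line, 7.20, 7.09 and 7.18 in the knockout line and 8.63, 8.74 and 8.32 for the wild-type line. It was lower by 1.54 log2 in the tumour line than in the wild-type line (difference -1.54 ± 0.11 SE, limma, adjusted p = 1.25e-08) and differed by -1.41 ± 0.11 between the knockout and the wild-type line (limma, adjusted p = 1.52e-07), and it is not known here if these probes target the deleted part of the gene. The 4 epithelial markers averaged 12.99 to 13.02 in the tumour line, 11.80 to 12.08 in the knockout line and 11.05 to 11.14 in the wild-type line. Krt8 and Krt18 were called higher in the tumour line than in both other lines, and Epcam was not called. Cdh1 went the other way, with means of 11.92, 12.63 and 12.88 in the tumour, knockout and wild-type lines. Its tumour differences of -0.71 and -0.97 stayed under 2-fold. The 5 airway basal markers averaged 5.87 to 5.96 in the tumour line, with Krt17 and Trp63 under the background floor, against 12.92 to 13.05 in the knockout line and 13.33 to 13.45 in the wild-type line. The 5 alveolar type II markers averaged 5.93 to 6.23 on all arrays, tumour arrays included, and none was called in any comparison. Markers of fibroblasts, smooth muscle, endothelium, cartilage and leukocytes averaged 5.35 to 6.60, and Col3a1, Cnn1, Tie1, Emcn, Matn1 and Ptprc were under the floor on all 3 arrays of at least one line. Others of these markers stood well above the floor. Csf1r averaged 8.03, 7.68 and 7.52 in the tumour, knockout and wild-type lines, and Kdr 7.66, 7.60 and 7.46. Cd68 averaged 6.92, 7.71 and 8.03. Its difference of -1.11 ± 0.11 between the tumour and the wild-type line was called (limma, adjusted p = 5.38e-07). That floor, 5.15 log2, is the 95th percentile of the 27 control probe sets for Bacillus subtilis RNA, of which the highest reached 5.96. It was chosen after the data were seen.

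The widest differences in the family lay in the binding proteins. Igfbp2 and 1 of the 2 Igfbp5 probe sets were bright in the wild-type line and near the background floor in both Gprc5a-deficient lines. Igfbp7 was bright in the tumour and wild-type lines and low in the knockout line, Igfbp4 was higher in the tumour line on each of its 6 probe sets, and Igfbp3 was lower in the tumour line. The 9 probe sets of the receptors and adaptors stayed within a narrower band, with differences of -0.94 to 0.57 for tumour minus knockout, -1.09 to -0.07 for tumour minus wild type and -0.66 to 0.82 for knockout minus wild type.

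**Figure D1:**
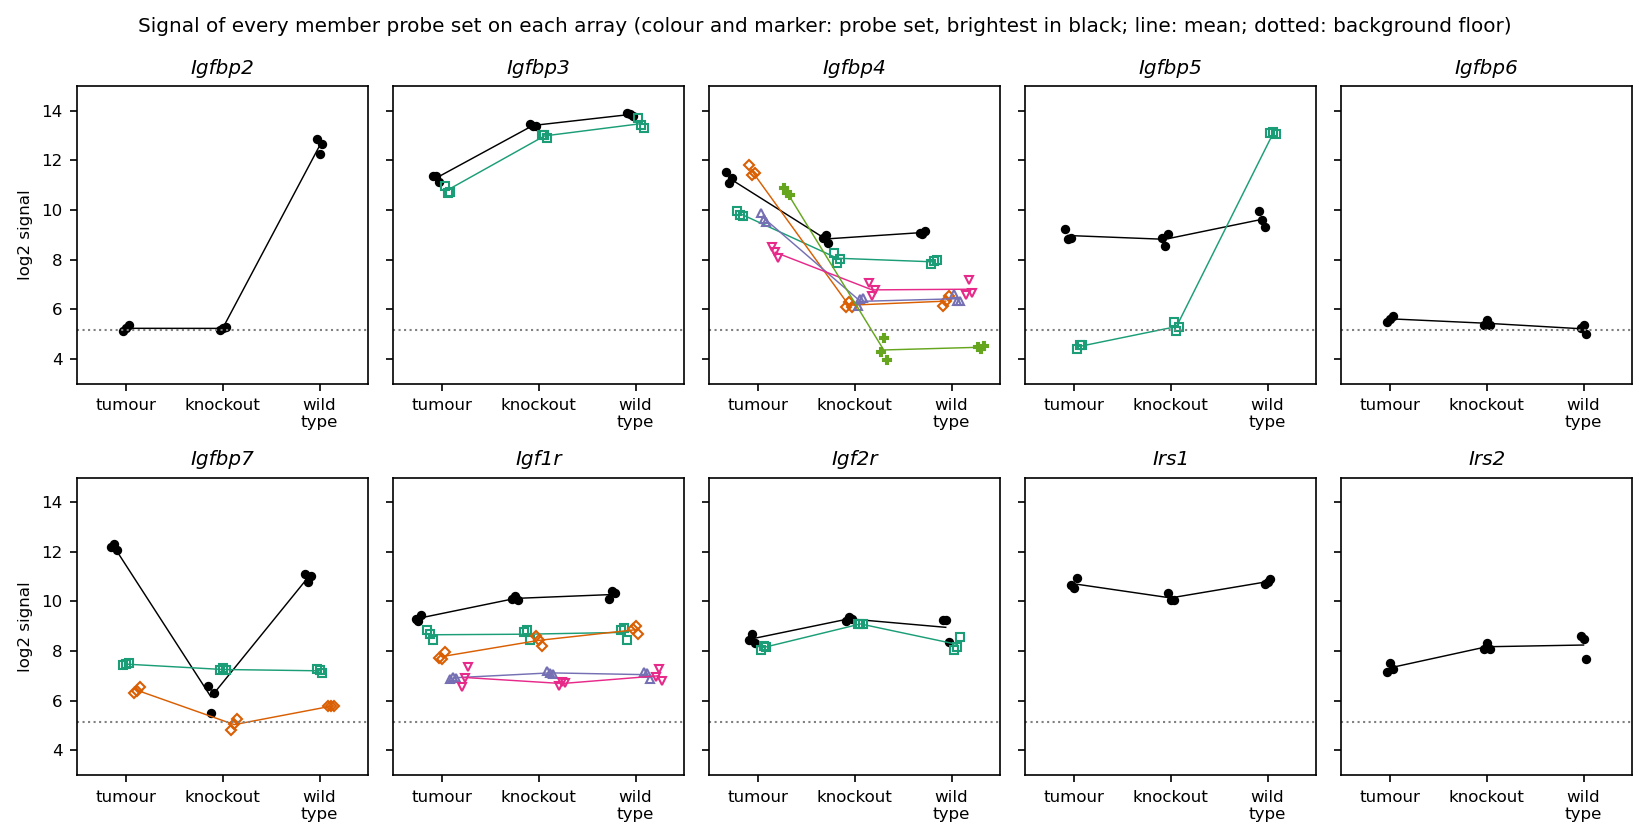
Log2 signal (y axis) of all 24 member probe sets on each array, 1 panel per gene, with the tumour, knockout and wild-type lines along the x axis. Points are arrays, short lines are means of 3 arrays, colours and markers separate the probe sets of a gene with the brightest in black, and the dotted line is the background floor of 5.15. Igfbp2 and the second Igfbp5 probe set stand high in the wild-type line alone, and the brightest Igfbp7 probe set stands low in the knockout line alone.

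Igfbp2 encodes a secreted carrier of both IGFs that can also bind integrins on the cell surface. Its single probe set had signals of 5.11, 5.22 and 5.35 in the tumour line, 5.15, 5.24 and 5.28 in the knockout line and 12.85, 12.25 and 12.66 for the wild-type line. The 3 wild-type arrays lay far above the other 6, whose values overlapped and sat at the background floor. The means were 5.22 ± 0.12, 5.23 ± 0.07 and 12.59 ± 0.31 in the tumour, knockout and wild-type lines (SD, n = 3 each). Tumour minus wild type and knockout minus wild type were both -7.36, with an SE of 0.13 in the fit over genes. Both differences use the same wild-type arrays, and their size is limited by background on the dim side, so no fold is given. RNA of fewer expressing cells and less RNA per cell cannot be told apart in such bulk extracts.

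Igfbp5 encodes the carrier that binds strongly to extracellular matrix. Its 2 probe sets disagreed. The second, 1452114_s_at, had signals of 4.38, 4.55 and 4.56 in the tumour line, 5.50, 5.12 and 5.27 in the knockout line and 13.12, 13.16 and 13.05 for the wild-type line. The wild-type arrays were again far above the rest, all 3 tumour arrays were under the floor, and the knockout arrays were at it. In the tumour line its signal was lower than in the wild-type line by a factor of at least 249 (difference -8.61 ± 0.11 SE). Knockout minus wild type was -7.81 ± 0.11, and its size is limited by background, since the 3 knockout arrays lay under the highest control of 5.96. The brighter probe set over the 9 arrays, 1422313_a_at, had signals of 9.23, 8.83 and 8.85 in the tumour line, 8.87, 8.53 and 9.05 in the knockout line and 9.95, 9.60 and 9.31 for the wild-type line. There the wild-type arrays lay above the other 6 by far less, with differences of -0.64 ± 0.18 for tumour minus wild type and -0.81 ± 0.18 for knockout minus wild type, neither past 2-fold. Since a gene is represented by its brightest probe set, Igfbp5 counts as not called at the gene level, whereas the mean of its probe sets gives -4.63 for tumour minus wild type and -4.31 for knockout minus wild type, both called. The suffix _s_at marks probes that can match more than one transcript, and which transcripts either probe set reads was not tested.

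Igfbp2 and Igfbp5 are next to each other on mouse chromosome 1 in the RefSeq annotation of GRCm38.p6, Igfbp2 on the plus strand and Igfbp5 on the minus strand. The neighbours were looked up after the values had been seen. On the Igfbp2 side, Rpl37a, a ribosomal protein gene, differed by 0.06 ± 0.11 between the tumour and the wild-type line and by -0.08 ± 0.11 between the knockout and the wild-type line (limma, adjusted p = 0.692 and 0.664). Smarcal1, which encodes a DNA annealing helicase, lay one measured gene further out and differed by 0.10 ± 0.11 and -0.26 ± 0.11 in the same 2 comparisons (limma, adjusted p = 0.515 and 0.0885). On the Igfbp5 side, Tnp1, a spermatid nuclear protein gene, was under the floor, with means of 4.60, 4.46 and 4.40 in the tumour, knockout and wild-type lines. Tns1, which encodes the focal adhesion protein tensin 1, differed by 0.21 ± 0.09 and -0.14 ± 0.09 (limma, adjusted p = 0.0802 and 0.337). The 3 neighbours above the floor, Rpl37a, Smarcal1 and Tns1, thus differed by less than 2-fold in each comparison, and Tnp1 has no signal from which a difference could be read.

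**Figure D2:**
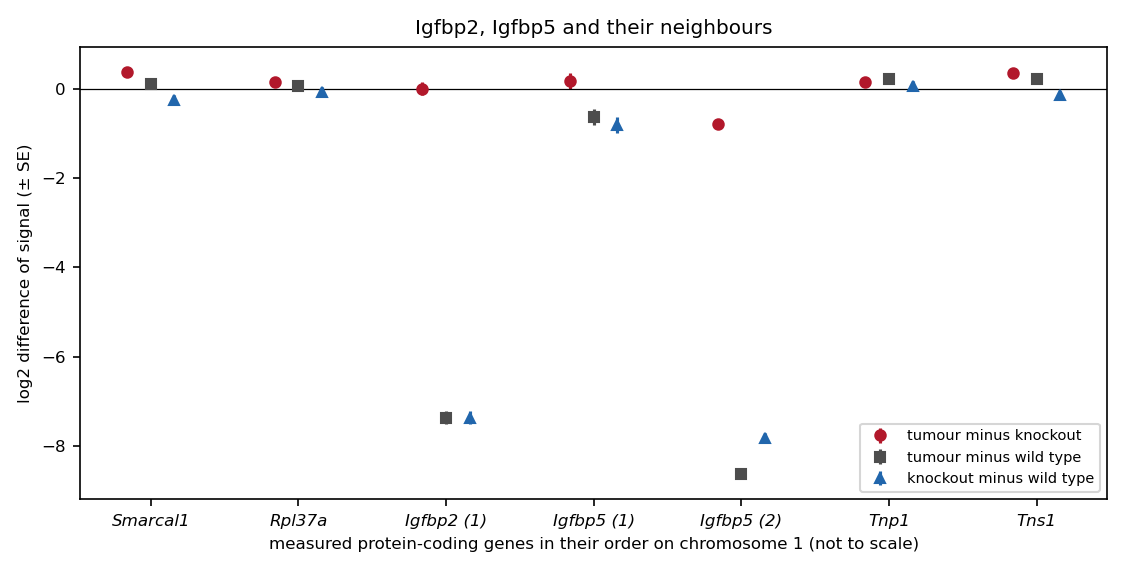
Log2 difference of signal (y axis) for Igfbp2, both probe sets of Igfbp5 and their nearest measured protein-coding neighbours in chromosome order (x axis, not to scale). Circles are tumour minus knockout, squares tumour minus wild type and triangles knockout minus wild type, with bars for the SE of the fit. Igfbp2 and the second Igfbp5 probe set lie between -8.61 and -7.36 in both differences from the wild-type line, and the 4 neighbours, of which Tnp1 is under the floor, lie between -0.26 and 0.36.

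The promoters of Igfbp2, Igfbp5, Igfbp7 and Igfbp4 are shown because these 4 genes had the widest differences between lines on any one of their probe sets, and all 10 members matched a promoter in RefSeq (GRCm38.p6). Each window runs 5′ to 3′ on the strand of its gene, from 250 bases before the annotated start to 50 bases after it. Capitals mark the motifs searched, on both strands: the GC box GGGCGG, the TATA box TATAAA and the E-box CACGTG. The windows are chr1:72824230-72824529 on the plus strand for the first Igfbp2 start, chr1:72874816-72875115 on the minus strand for Igfbp5, chr5:77407996-77408295 on the minus strand for Igfbp7 and chr11:99040994-99041293 on the plus strand for Igfbp4.
Igfbp2: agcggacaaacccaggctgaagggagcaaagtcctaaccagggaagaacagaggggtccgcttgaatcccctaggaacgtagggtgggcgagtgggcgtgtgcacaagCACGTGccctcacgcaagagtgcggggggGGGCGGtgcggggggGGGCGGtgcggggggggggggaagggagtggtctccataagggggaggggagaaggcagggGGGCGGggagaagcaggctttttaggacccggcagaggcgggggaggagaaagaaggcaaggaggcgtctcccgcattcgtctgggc
Igfbp5: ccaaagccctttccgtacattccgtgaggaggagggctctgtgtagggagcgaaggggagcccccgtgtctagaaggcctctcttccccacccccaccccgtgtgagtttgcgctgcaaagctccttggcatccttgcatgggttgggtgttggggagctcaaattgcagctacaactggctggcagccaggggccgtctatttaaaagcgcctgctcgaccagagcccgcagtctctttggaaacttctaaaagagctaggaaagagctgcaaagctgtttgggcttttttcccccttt
Igfbp7: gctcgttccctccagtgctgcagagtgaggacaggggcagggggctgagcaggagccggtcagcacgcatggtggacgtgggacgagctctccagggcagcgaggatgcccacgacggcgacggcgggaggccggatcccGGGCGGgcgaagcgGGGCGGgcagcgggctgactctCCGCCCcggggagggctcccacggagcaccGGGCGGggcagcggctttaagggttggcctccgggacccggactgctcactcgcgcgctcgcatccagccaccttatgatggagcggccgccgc
Igfbp4: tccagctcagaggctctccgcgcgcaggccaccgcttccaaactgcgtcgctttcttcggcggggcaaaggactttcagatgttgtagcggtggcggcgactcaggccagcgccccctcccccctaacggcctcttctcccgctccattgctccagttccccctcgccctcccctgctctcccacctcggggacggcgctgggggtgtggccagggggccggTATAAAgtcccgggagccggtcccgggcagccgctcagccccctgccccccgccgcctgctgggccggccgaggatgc
The Igfbp2 window held 3 GC boxes and 1 E-box, the Igfbp7 window 4 GC boxes, the Igfbp4 window a TATA box at position -28 from the start, and these letters were not in the Igfbp5 window. Over all 11 member windows (Igfbp2 has 2), 6 held a GC box, 2 a TATA box and 4 an E-box, with no matches overlapping. Of the 32851 mouse promoters of that length in the table, 35.7% held a GC box, 13.6% a TATA box and 7.15% an E-box. The CpG count was 18 for Igfbp2, 10 for Igfbp5, 33 for Igfbp7 and 27 for Igfbp4, within a range of 8 to 48 for the family and against a median of 7 over all promoters, whose quartiles were 3 and 20. A match is a run of letters, not evidence that a factor binds there.

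Igfbp7 encodes a distant relative of the binding proteins that has low affinity for IGFs and is deposited in basement membranes. Its brightest probe set, 1423584_at, had signals of 12.20, 12.32 and 12.08 in the tumour line, 6.60, 5.52 and 6.32 in the knockout line and 11.09, 10.79 and 11.01 for the wild-type line. The tumour arrays were all highest, the wild-type arrays next and the knockout arrays far below, with no overlap between any pair of lines. The means were 12.20 ± 0.12, 6.15 ± 0.56 and 10.96 ± 0.16 in the tumour, knockout and wild-type lines. Knockout replicate 2, at 5.52, lay under the highest control of 5.96, so the size of both differences from the knockout line can be limited by background. The signal was 66.3-fold higher in the tumour line than in the knockout line (6.05 ± 0.22), 2.36-fold higher in the tumour line than in the wild-type line (1.24 ± 0.22) and 28.1-fold lower in the knockout than in the wild-type line (-4.81 ± 0.22). The dimmer 1423585_at kept that order, with means of 6.41 ± 0.14, 5.03 ± 0.22 and 5.78 ± 0.01, whereas 1437804_at differed by at most 0.27. With the mean of the 3 probe sets the tumour minus wild-type difference was 0.72, under the 2-fold threshold.

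Igfbp4 encodes a carrier that mostly withholds IGFs from their receptor and that is cut by the protease PAPP-A. Its brightest probe set, 1437406_x_at, had signals of 11.52, 11.10 and 11.27 in the tumour line, 8.86, 8.98 and 8.65 in the knockout line and 9.09, 9.04 and 9.14 for the wild-type line. The tumour arrays were all higher, with differences of 2.46 ± 0.12 from the knockout line and 2.20 ± 0.12 from the wild-type line. The knockout line lay slightly under the wild-type line without overlap (-0.26 ± 0.12). All 6 Igfbp4 probe sets were higher in the tumour line and past 2-fold, but by sizes that ranged over 1.52 to 6.37 against the knockout line and over 1.49 to 6.26 against the wild-type line.

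The 2 Igfbp4 probe sets with the widest differences were dim in both tracheal lines. On 1437405_a_at the tumour arrays read 11.80, 11.41 and 11.50, against 6.10, 6.29 and 6.08 in the knockout line and 6.11, 6.34 and 6.52 for the wild-type line, a 42.6-fold and a 38.0-fold higher signal in the tumour line. On 1423756_s_at the tumour arrays read 10.90, 10.68 and 10.59, against 4.27, 4.85 and 3.94 in the knockout line and 4.46, 4.40 and 4.53 for the wild-type line. All 6 tracheal arrays were under the floor there, so the signal was at least 47.6-fold higher in the tumour line than in either. The knockout and wild-type arrays overlapped on 5 of the 6 probe sets, with differences of -0.26 to 0.15. Igfbp4 lies between Top2a and Tns4 on chromosome 11, neighbours that were also looked up after the values had been seen. Top2a, a topoisomerase gene of dividing cells, rose in the tumour line by 2.26 ± 0.12 against the knockout line and by 1.83 ± 0.12 against the wild-type line (limma, adjusted p = 7.98e-10 and 6.9e-09). Tns4, which encodes tensin 4, rose by 1.24 ± 0.10 against the knockout line and differed by 0.43 ± 0.10, under 2-fold, from the wild-type line (limma, adjusted p = 5.98e-08 and 0.00186).

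Igfbp3 encodes the main IGF carrier of serum. Its brightest probe set, 1423062_at, had signals of 11.39, 11.35 and 11.11 in the tumour line, 13.45, 13.40 and 13.37 in the knockout line and 13.92, 13.86 and 13.77 for the wild-type line. The 3 lines did not overlap, with the tumour line lowest and the wild-type line highest. The signal was 4.36-fold lower in the tumour line than in the knockout line (-2.13 ± 0.10) and 5.93-fold lower in the tumour line than in the wild-type line (-2.57 ± 0.10). Knockout minus wild type was -0.44 ± 0.10, under the 2-fold threshold. The second Igfbp3 probe set gave -2.18, -2.68 and -0.50 in the same 3 comparisons.

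Igfbp6 encodes a carrier that prefers IGF2. Its 1 probe set had signals of 5.47, 5.62 and 5.74 in the tumour line, 5.35, 5.58 and 5.36 in the knockout line and 5.24, 5.38 and 4.99 for the wild-type line. All 9 values lay within the reach of the control probe sets, whose highest was 5.96, and the differences of 0.18, 0.40 and 0.23 for tumour minus knockout, tumour minus wild type and knockout minus wild type were not past 2-fold.

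**Figure D3:**
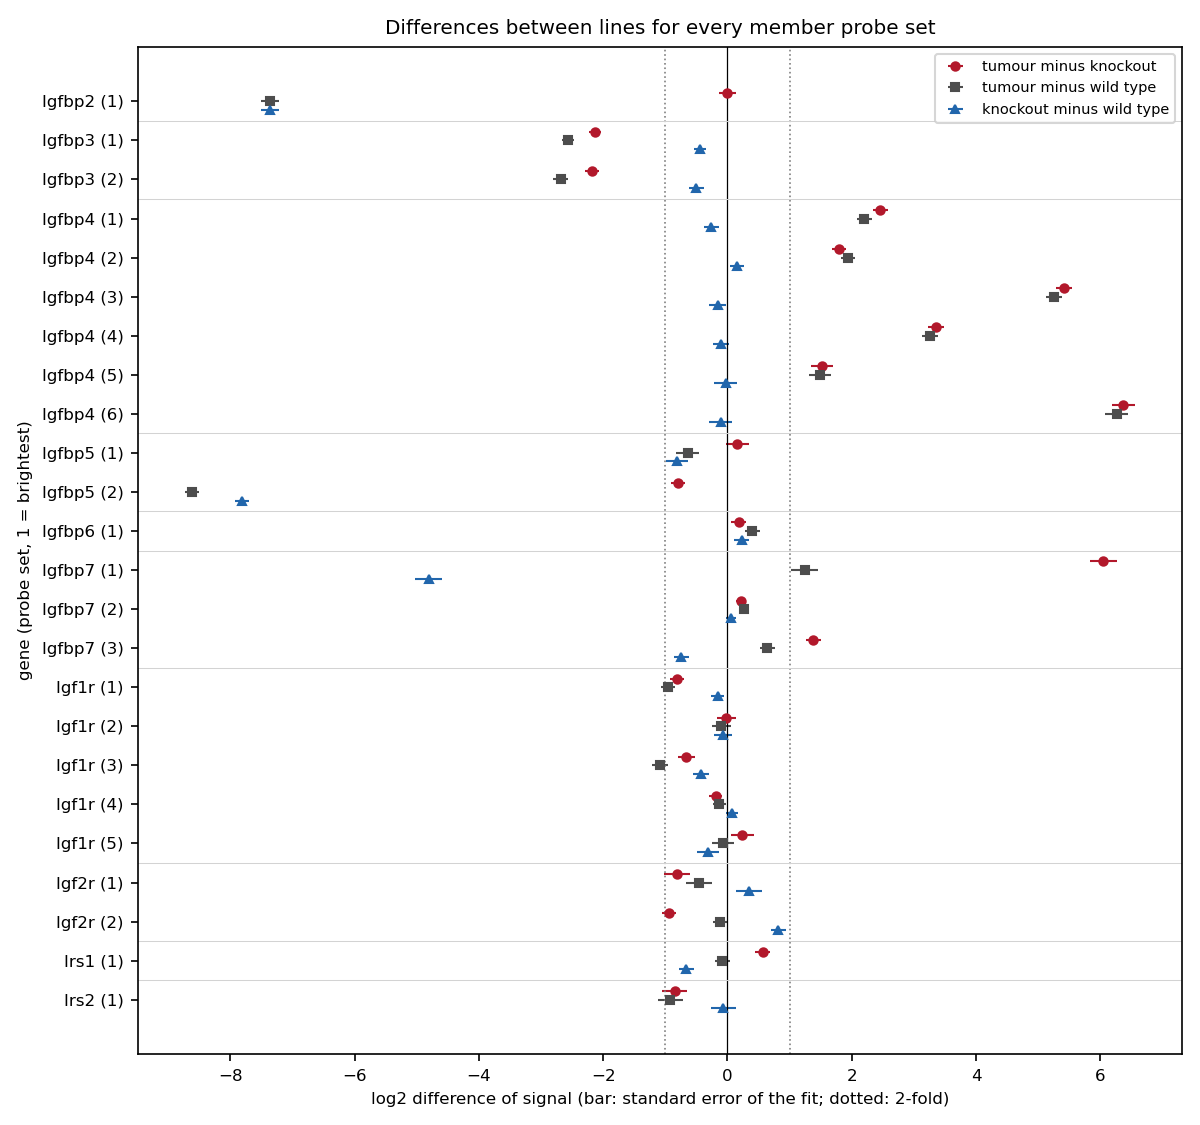
Log2 difference of signal (x axis) between lines for each of the 24 member probe sets (y axis, gene with probe sets numbered from the brightest), with bars for the SE of the fit and dotted lines at 2-fold. Igfbp4 lies to the right of 0 in both tumour comparisons on all 6 probe sets, and the receptor and adaptor probe sets lie between -1.09 and 0.82.

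Igf1r encodes the receptor that carries the growth signal of both IGFs. Its brightest probe set, 1452982_at, had signals of 9.29, 9.21 and 9.46 in the tumour line, 10.11, 10.22 and 10.04 in the knockout line and 10.10, 10.41 and 10.33 for the wild-type line. The tumour arrays were lower than all 6 tracheal arrays, which overlapped one another. The differences were -0.81 ± 0.11 for tumour minus knockout, -0.96 ± 0.11 for tumour minus wild type and -0.16 ± 0.11 for knockout minus wild type, none past 2-fold. The second of these became called, at -1.03, without tumour replicate 3 and, at -1.05, without wild-type replicate 1. The third brightest, 1428967_at, read 7.71, 7.66 and 7.96 in the tumour line, 8.61, 8.46 and 8.22 in the knockout line and 8.89, 9.02 and 8.67 for the wild-type line. Here the 3 lines did not overlap, and tumour minus wild type, -1.09 ± 0.13, passed 2-fold. The other 3 Igf1r probe sets differed by -0.31 to 0.24 in the 3 comparisons.

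Igf2r encodes the receptor that clears IGF2 and carries mannose 6-phosphate enzymes to lysosomes. Its brightest probe set, 1424112_at, had signals of 8.46, 8.68 and 8.34 in the tumour line, 9.22, 9.39 and 9.29 in the knockout line and 9.27, 9.25 and 8.35 for the wild-type line. Wild-type replicate 3 stood with the tumour arrays and the other 2 wild-type arrays with the knockout arrays. Tumour minus knockout was -0.81 ± 0.21, tumour minus wild type -0.46 ± 0.21 and knockout minus wild type 0.34 ± 0.21. Without wild-type replicate 3 the last 2 were -0.77 and 0.04. The second probe set, 1424111_at, read 8.05, 8.21 and 8.17 in the tumour line, 9.09, 9.10 and 9.09 in the knockout line and 8.06, 8.17 and 8.57 for the wild-type line. On it the knockout arrays were higher than both other lines, whose arrays overlapped, with differences of -0.94 ± 0.12, -0.12 ± 0.12 and 0.82 ± 0.12 in the same order. The 2 probe sets were alike in tumour minus knockout and differed on where the wild-type line lay, and no Igf2r difference passed 2-fold.

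Irs1 and Irs2 encode the docking proteins that IGF1R and the insulin receptor phosphorylate. Irs1 had signals of 10.65, 10.56 and 10.93 in the tumour line, 10.34, 10.05 and 10.04 in the knockout line and 10.72, 10.78 and 10.90 for the wild-type line. The knockout arrays were below the other 6, which overlapped, and the differences were 0.57 ± 0.12 for tumour minus knockout, -0.08 ± 0.12 for tumour minus wild type and -0.66 ± 0.12 for knockout minus wild type. Irs2 had signals of 7.17, 7.52 and 7.27 in the tumour line, 8.09, 8.34 and 8.09 in the knockout line and 8.59, 8.47 and 7.67 for the wild-type line. The tumour arrays were lowest without overlap, and the knockout and wild-type arrays overlapped. Tumour minus knockout was -0.85 ± 0.19, tumour minus wild type -0.92 ± 0.19 and knockout minus wild type -0.07 ± 0.19. Tumour minus wild type passed 2-fold without tumour replicate 2, at -1.03, and without wild-type replicate 3, at -1.21.

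Wild-type replicate 3 had the lowest wild-type signal of both Irs2 and the brightest Igf2r probe set. It also had the widest gap of 3′ over 5′ signal among the beta-actin controls, a sign of RNA length, at 1.78, in ranges of 0.37 to 0.74 in the tumour line, 0.90 to 0.95 in the knockout line and 0.75 to 1.78 in the wild-type line. The part of this in the Irs2 and Igf2r values was not tested.

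With 1 probe set per gene, 2 members were higher and 1 was lower in the tumour line than in the knockout line, where 14.2% of all genes were called (7.79% up, 6.38% down). Against the wild-type line, 2 members were higher and 2 lower in the tumour line, where 16.6% of all genes were called (8.09% up, 8.46% down). For knockout against wild type none was higher and 2 were lower, where 4.88% of all genes were called, 1.9% higher and 2.98% lower. Called means a limma adjusted p under 0.05 and a difference of at least 2-fold. The arrays of the 2 lines did not overlap for 7, 8 and 6 of the 10 members in these comparisons, where they did not overlap for 52.3%, 54.7% and 39.1% of all genes. Over the 24 probe sets, 8 were higher and 2 lower for tumour against knockout, where 11.4% of all probe sets were called, 6.19% higher and 5.18% lower. Against the wild-type line 7 were higher and 5 lower for the tumour line, where 13.1% were called, 6.69% higher and 6.42% lower. For knockout against wild type 0 were higher and 3 lower, where 3.71% were called, 1.61% higher and 2.11% lower. The arrays of the lines did not overlap for 19, 18 and 12 of the 24 probe sets, where they did not for 46.4%, 47.6% and 31.5% of all probe sets. The member medians over genes were 0.08, -0.55 and -0.35, beside 0.00, 0.01 and 0.00 over all genes. Nothing is read from these counts, since the members were chosen on these arrays.

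The ligands themselves were not called in any comparison. Igf1 averaged 6.59 ± 0.16 in the tumour line, 6.36 ± 0.09 in the knockout line and 6.38 ± 0.10 for the wild-type line on its brightest probe set. Igf2 averaged 6.50 ± 0.22, 6.58 ± 0.11 and 6.87 ± 0.22 in the same lines, and its difference of -0.37 ± 0.13 between the tumour and the wild-type line stayed under 2-fold (limma, adjusted p = 0.0285). Igfbp1, the remaining high-affinity binding protein and the neighbour of Igfbp3 on chromosome 11, was under the floor on all 9 arrays, with means of 4.40, 4.58 and 4.46. Insr, the insulin receptor, averaged 7.15 ± 0.13 in the tumour line, 8.89 ± 0.14 in the knockout line and 8.90 ± 0.12 for the wild-type line. It fell by 1.74 in the tumour line against the knockout line and fell by 1.76 against the wild-type line (limma, adjusted p = 3.19e-09 and 2.47e-09). Its 2 dimmer probe sets did not pass the test, and the mean of all 3 gave -0.63 and -0.66, under 2-fold. Those 2 read 4.51 to 4.77, under the floor, and 5.95 to 6.26, near the highest control of 5.96, so background can limit their differences and that mean.

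The other genes of the pathway were taken from 9 lists with 83 genes, of which 76 were measured. In the tumour line 6 rose and 10 fell against the knockout line and 6 rose and 13 fell against the wild-type line, and in the knockout line 2 rose and 3 fell against the wild-type line. Their medians were 0.05, -0.08 and -0.08, beside 0.00, 0.01 and 0.00 over all genes, and the shares of all genes called are those given above.

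Among 12 further carriers and relatives with an IGFBP domain, Ccn2, a matricellular growth factor, rose by 7.36 ± 0.20 in the tumour line against the knockout line and by 6.94 ± 0.20 against the wild-type line (limma, adjusted p = 3.84e-13 and 5.46e-13), with means of 13.09, 5.73 and 6.15 in the tumour, knockout and wild-type lines. Its tracheal arrays read 5.31 to 6.67, near the highest control of 5.96, so the size of both Ccn2 differences can be limited by background. Ccn1, its matricellular relative, rose by 1.47 ± 0.13 in the tumour line against the wild-type line on its brightest probe set (limma, adjusted p = 2.49e-07). Its 4 probe sets disagreed: 2 dimmer ones gave 0.34 and 0.44 there (limma over probe sets, adjusted p = 0.254 and 0.177). For tumour minus knockout those 2 gave -0.72 and -0.73, against 0.85 on the brightest, and 1.08, past 2-fold, on the set used without _x_at and _s_at probe sets. Ccn4, a WNT-induced member of the same family, fell by 1.69 in the tumour line and fell by 1.95 in the knockout line against the wild-type line (limma, adjusted p = 1.1e-07 and 1.01e-07). Kazald1 fell by 1.01 in the tumour line against the wild-type line (limma, adjusted p = 1.22e-05), a call lost without tumour replicate 1, tumour replicate 3 or wild-type replicate 3, with -0.92, -0.96 and -0.95. The tumour arrays of Kazald1, at 5.07, 5.57 and 5.16, lay within the reach of the controls.

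Of 7 proteases of the binding proteins and their inhibitors, Htra1, a secreted serine protease, fell by 2.62 in the tumour line against the knockout line and fell by 2.00 against the wild-type line (limma, adjusted p = 1.02e-11 and 1.57e-10). Its means were 10.78 ± 0.13, 13.40 ± 0.03 and 12.78 ± 0.10 in the tumour, knockout and wild-type lines, an order of lines in which, as for Igfbp3, the tumour line was lowest. Adam12, a metalloprotease, rose by 1.40 ± 0.12 in the knockout line against the wild-type line (limma, adjusted p = 6.89e-07). Its tumour minus wild-type difference of 0.98 passed 2-fold, at 1.07, without tumour replicate 1 and, at 1.08, without wild-type replicate 1. The dimmer Adam12 probe set gave 1.43 there (limma over probe sets, adjusted p = 1.9e-05). The mean of its probe sets gave 1.20, also called.

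Of 9 other adaptors, Gab1, a docking protein downstream of many receptors, fell by 2.56 in the tumour line against the knockout line and fell by 3.06 against the wild-type line (limma, adjusted p = 4.32e-10 and 4.74e-11). Shc1, which links receptors to RAS, averaged 10.39 ± 0.47, 9.36 ± 0.05 and 9.31 ± 0.21 and rose by 1.03 and 1.08 in the tumour line (limma, adjusted p = 0.000198 and 0.000115). Its differences were 0.90 and 0.95 without tumour replicate 1 and 0.89 and 0.94 without tumour replicate 2, all under 2-fold. The first was also under 2-fold by quantile normalization, at 0.96, and the second without wild-type replicate 2, at 0.99. Of the 9 measured feedback regulators, Socs2 averaged 7.54 ± 0.15 in the tumour line, 11.53 ± 0.18 in the knockout line and 11.68 ± 0.13 for the wild-type line. This inhibitor of cytokine and growth hormone signalling fell by 3.98 in the tumour line against the knockout line and fell by 4.13 against the wild-type line (limma, adjusted p = 8.5e-13 and 4.25e-13). Its relative Socs3 fell by 2.19 against the knockout line and fell by 2.92 against the wild-type line (limma, adjusted p = 2.1e-10 and 6.8e-12), and Trib3, an AKT inhibitor, rose by 1.76 and by 1.28 in these comparisons (limma, adjusted p = 1.5e-07 and 3.76e-06).

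Among the 22 measured genes of PI3K, AKT, mTOR and FoxO, Pik3r1, a regulatory subunit of PI3K, fell by 2.71 in the tumour line against the knockout line and fell by 2.04 against the wild-type line (limma, adjusted p = 1.42e-10 and 2.76e-09). Akt1 rose by 1.47 and 1.32 in those comparisons (limma, adjusted p = 1.6e-08 and 4.17e-08), although the mean of its probe sets gave 0.80 and 0.90, under 2-fold. Foxo1, a transcription factor that AKT keeps out of the nucleus, averaged 8.33 ± 0.11 in the tumour line, 9.96 ± 0.02 in the knockout line and 8.15 ± 0.07 for the wild-type line. It rose by 1.81 in the knockout line against the wild-type line and fell by 1.64 in the tumour line against the knockout line (limma, adjusted p = 1.28e-09 and 9.67e-10). Foxo3 fell by 2.29 and fell by 1.32 in the tumour line against the knockout and wild-type lines (limma, adjusted p = 6.45e-08 and 1.95e-05), with -0.79 in the second comparison from the mean of its probe sets. Its knockout minus wild-type difference of 0.97 passed 2-fold, at 1.22, without wild-type replicate 3, at 1.06 without knockout replicate 1 and at 1.04 by quantile normalization. Pik3r2 fell by 1.26 in the tumour line and Pik3r3 fell by 1.24 in the knockout line, each against the wild-type line (limma, adjusted p = 5.48e-08 and 1.22e-06). For Pik3r2, tumour minus knockout was -0.97 and passed 2-fold by quantile normalization, at -1.03, without knockout replicate 1, at -1.02, and without tumour replicate 3.

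Among 4 measured genes that act on Igf2 mRNA, Hmga2, a chromatin protein that raises IGF2 output through IGF2BP2, rose by 2.14 ± 0.11 in the tumour line against the knockout line and by 2.95 ± 0.11 against the wild-type line (limma, adjusted p = 5.66e-10 and 1.24e-11). A further list held 8 genes of sorting to lysosomes, a task of Igf2r for enzymes with mannose 6-phosphate. Of these, the sorting receptor gene Sort1 fell by 2.18 in the tumour line and fell by 1.16 in the knockout line against the wild-type line (limma, adjusted p = 1.16e-10 and 5.75e-07). Its fall of 1.02 in the tumour line against the knockout line (limma, adjusted p = 6.28e-07) was lost without tumour replicate 3, just short of 2-fold, without knockout replicate 2, at -0.94, and from the mean of its probe sets, at -0.76, as was the knockout minus wild-type call, at -0.75 from that mean. The adaptor gene Gga2 fell by 1.55 in the tumour line against the wild-type line (limma, adjusted p = 3.08e-09). Whether sorting by mannose 6-phosphate itself differed was not tested.

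**Figure D4:**
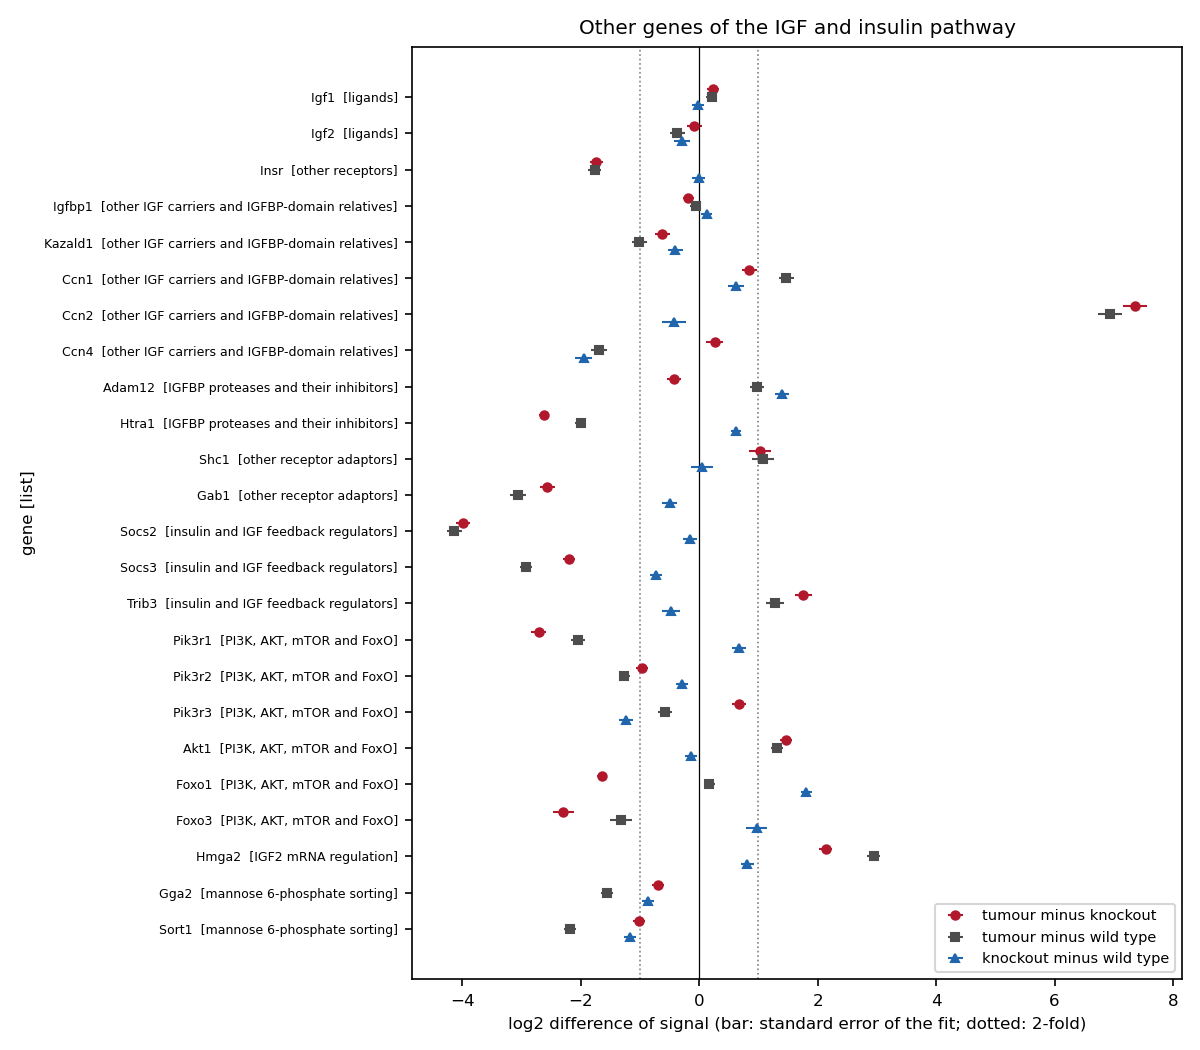
Log2 difference of signal (x axis) for the named genes of the IGF and insulin pathway outside the family (y axis), with bars for the SE of the fit and dotted lines at 2-fold. Ccn2 reaches 7.36 for tumour minus knockout, a size that background can limit, and Socs2 reaches -4.13 for tumour minus wild type.

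For the 3 members with the widest range of line means on their brightest probe set, the genes with the most alike pattern were taken by the root mean square distance between centred log2 signals over the 9 arrays, among 16310 genes. For Igfbp2, with a range of 7.36, these were Efemp1, Krtdap and Dapl1, at distances of 0.49, 0.63 and 0.75. Efemp1, which encodes an extracellular matrix glycoprotein, averaged 3.79 ± 0.17 in the tumour line, 4.30 ± 0.19 in the knockout line and 10.60 ± 0.18 for the wild-type line. Its tumour and knockout values were under the background floor. For Igfbp7, with a range of 6.05, they were Krt19, Ppbp and Padi4, at 0.46, 0.51 and 0.75. For Igfbp3, with a range of 2.57, they were Sdc2, Tmem132a and Smad1, at 0.07, 0.10 and 0.12. With 3 lines, such likeness rests on the order and spacing of 3 line means.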

How the data were processed

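RNA of 3 lines was hybridised to 9 arrays, 3 per line, grouped by the labels. The deposited table holds log2 signals per probe set; the authors' normalization is not given in the sources used here. Of 45101 probe sets, 64 are controls, 34945 carry one symbol, 932 several and 9160 none in the platform annotation. Of the single-symbol probe sets, 34741 were matched to RefSeq by Entrez number and took the symbol given there. A gene is read by the brightest (by mean signal) of its single-symbol probe sets. Genes (18193) and, separately, non-control probe sets (45037) were fitted with limma 3.58.1 (lmFit and eBayes, R 4.3.3) on all 9 arrays, with line as the only term, and p-values were adjusted by Benjamini-Hochberg over each whole table. Called means adjusted p under 0.05 and at least 2-fold. The fit was tested on simulated data. Array medians were 6.28 to 6.34, and arrays of 1 line correlated at 0.990 to 0.996. The hybridisation spike BioB read lower on the tumour arrays, at 7.60 to 8.24, than in the knockout line, at 8.32 to 9.48, and the wild-type line, at 8.42 to 8.57. The part of this in the tumour comparisons was not tested. The number of arrays limits the precision.

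The members, the pathway and marker lists and the tests were chosen with earlier results of these data known. All members and their probe sets are described. From each pathway list, up to 6 called genes with the largest difference are named, with Igf1, Igf2, Insr and Igfbp1 whatever their values; Gprc5a checks the labels. The 7 listed genes without a single-symbol probe set were not used here. Where a probe set is under the floor on all 3 arrays of a line, its fold is a bound against the floor. Alternatives were quantile normalization, median centring, the mean over a gene's probe sets, a filter on the dimmest 40% of probe sets, leaving out _x_at and _s_at probe sets, no or a 1.5-fold threshold, each array left out and the replicate number as a block. Further ones were an intensity trend with robust eBayes, a fit of only the 2 lines compared and the fit over all probe sets.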

Additional observations from a re-analysis of the deposited data

How the results depend on the processing

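Members called numbered 3 for tumour against knockout, 4 for tumour against wild type and 2 for knockout against wild type. They numbered 7, 8 and 5 with no fold threshold and 6, 7 and 4 with a 1.5-fold threshold, and 3 to 3, 4 to 5 and 2 to 2 when each array was left out. Member probe sets called numbered 10, 12 and 3. They numbered 6 and 7 in the first 2 comparisons without _x_at and _s_at probe sets, 17 and 10 in the first and the third with no fold threshold, 16 and 7 there with a 1.5-fold threshold, and 10 to 10, 12 to 13 and 3 to 3 when each array was left out. Pathway genes called numbered 16, 19 and 5. They numbered 42, 47 and 27 with no fold threshold, 29 in the first and 15 in the third with a 1.5-fold threshold, and 14 to 17, 18 to 20 and 5 to 6 when each array was left out. Fold thresholds act by construction on how many genes are counted. The shares of all genes called at these other thresholds are not given here, so nothing is read from these counts.

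The labels do not say whether the replicate numbers pair the arrays. Same-numbered arrays of different lines deviated together with correlations of -0.145 to 0.278, and other-numbered ones with correlations of -0.214 to 0.239. A day or batch shared between lines was not tested. The replicate block left the counts at 3, 4 and 2 members, 10, 12 and 3 member probe sets and 16, 19 and 5 pathway genes.

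Signs turned for differences near 0. A mean of probe sets takes in sets that differ, as for Igfbp5, whose 2 probe sets gave 0.16 and -0.80 for tumour minus knockout. The cause of the turns under other settings was not tested. For tumour minus knockout, Igfbp2 (0.00) gave 0.03 by quantile normalization, 0.02 by centring, 0.06 and 0.00 without tumour replicates 1 and 2 and 0.01 and 0.03 without knockout replicates 2 and 3, down to -0.06 without tumour replicate 3, Igfbp5 gave -0.32 and Igf1 gave -0.03 from the mean of probe sets, and Igf2 gave 0.02 without tumour replicate 3, down to -0.20 without tumour replicate 2. For knockout minus wild type, Irs2 gave 0.11 and 0.04 without wild-type replicates 1 and 2, down to -0.36 without wild-type replicate 3. Igf1 gave 0.10 from the mean of probe sets, 0.03 without knockout replicate 3 and 0.04 without wild-type replicate 3, down to -0.06 without knockout replicate 2. Insr gave 0.05 by quantile normalization, 0.00 and 0.05 without knockout replicates 2 and 3 and 0.05 without wild-type replicate 2, down to -0.09 without knockout replicate 1. Shc1 gave -0.03 without wild-type replicate 2, up to 0.17 without wild-type replicate 1, and Socs2 and Akt1 gave 0.09 and 0.10 from the mean of probe sets.

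Of the settings for single members, 521 kept the direction and the call, 6 gained a call, 1 lost it and 9 turned sign. Signals near the floor of 5.15, as for Igfbp2 and the second Igfbp5 probe set in the tumour and knockout lines, limit what can be said of low levels, and 1 line per group limits all comparisons.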

Other observations

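Pairs of type IV collagen genes, which encode chains of the basement membrane, lie next to Irs2 and, beyond Rhbdd1, near Irs1, and the collagens differed from the wild-type line more than the adaptors did. These neighbours were singled out after their values were seen. Beside Irs2, Col4a1 averaged 8.77 ± 0.20 in the tumour line, 9.48 ± 0.01 in the knockout line and 11.90 ± 0.32 for the wild-type line. It fell by 3.12 in the tumour line and fell by 2.41 in the knockout line against the wild-type line (limma, adjusted p = 1.03e-10 and 8.51e-09). Col4a2 fell by 2.50 and fell by 1.38 in the same comparisons (limma, adjusted p = 1.29e-11 and 4.41e-08). Near Irs1, Col4a4 averaged 5.51 ± 0.20, 7.76 ± 0.28 and 9.39 ± 0.15 and fell by 3.88 in the tumour line and fell by 1.64 in the knockout line (limma, adjusted p = 7.86e-12 and 5.11e-07). Its tumour arrays lay under the highest control of 5.96, so the size of its tumour difference can be limited by background. Col4a3 fell by 1.22 and fell by 1.25 (limma, adjusted p = 4.07e-07 and 1.16e-06). Rhbdd1, between them and Irs1, differed by -0.22 and 0.21 (limma, adjusted p = 0.157 and 0.25). Irs1 and Irs2 themselves differed from the wild-type line by -0.92 to -0.07 and were not called.

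Ramp3, a receptor chaperone gene near Igfbp3 on chromosome 11, was also singled out after its values were seen. It averaged 6.13 ± 0.09 in the tumour line, 10.15 ± 0.20 in the knockout line and 8.02 ± 0.16 for the wild-type line. Ramp3 fell by 4.02 in the tumour line against the knockout line and fell by 1.88 against the wild-type line (limma, adjusted p = 8.28e-13 and 3.06e-09). It rose by 2.14 in the knockout line against the wild-type line (limma, adjusted p = 3.31e-09), whereas Igfbp3 was highest in the wild-type line. The measured genes nearer to Igfbp3, Adcy1, Igfbp1 and Tns3, were not called in any comparison. Of these, Igfbp1 was under the floor and Adcy1 lay within the reach of the controls.

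One probe set annotated to both Airn, the antisense RNA of the Igf2r locus, and Igf2r was left out of the family. It read 5.03, 4.98 and 4.92 in the tumour line, 4.88, 4.82 and 4.92 in the knockout line and 4.78, 4.70 and 4.80 for the wild-type line, all under the background floor.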
